A study of Mus musculus with 2 samples.

Results

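Promoters that were open in wild-type (WT) mouse embryonic stem cells (ESCs) but had no listed open region in Uhrf1 knockout (KO) ESCs were collected from ATAC-seq peak lists. A promoter was taken as the sequence within 2 kb of any annotated transcript start of a protein-coding gene on the autosomes other than chromosome 8. It was placed in this class, called WT-only here, when it held the centre of at least 1 WT peak and of no KO peak. Of 20336 promoters, 1360 were WT-only, which is 6.69% of all promoters. They made up 10.5% (95% exact binomial interval 9.97% to 11%) of the 12966 promoters with a WT peak. A further 11606 promoters had peaks in both lists, 360 had a peak only in KO and 7010 had none. The KO-only promoters made up 3.01% (interval 2.71% to 3.33%) of the 11966 promoters with a KO peak. The promoters were chosen by the presence of peaks in these lists, so the shares are a description and were not tested.

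The WT sample came from undifferentiated E14 ESCs and the KO sample from undifferentiated E14 ESCs lacking Uhrf1. Both lines were grown on gelatin or on mouse embryonic fibroblasts in medium with serum and LIF, and 1 library was deposited for each genotype. A difference between the lists is therefore a difference between 2 libraries with no replicate error, and the genotype cannot be told apart from other differences between the cell lines. The WT list held 71914 peaks and the KO list 61640, each with a score of 1, so the lists carry no peak height. The lists hold no read counts, so the number of fragments behind a peak is unknown, and all intervals given cover counting error only.

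Uhrf1 is a nuclear protein that binds hemimethylated CpG sites and recruits Dnmt1, so that DNA methylation is copied after replication. In ATAC-seq, the Tn5 transposase inserts adapters where DNA is free of nucleosomes, and most active promoters stand out as peaks. Mammalian promoters differ in their CpG content. CpG-rich promoters (CpG islands) are mostly unmethylated and are used by housekeeping genes and by many developmental regulators, which Polycomb complexes hold in a poised state in ESCs. CpG-poor promoters more often belong to tissue-restricted genes.

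The WT peaks that placed promoters in the class ranged from CpG-dense islands to stretches without any CpG. 10 of them are shown to cover this range, ordered by their number of CpG sites, which are in capitals. Each is the whole 101 bp peak on the plus strand of NCBIM37 (mm9), from 5′ to 3′. None of them held bases of an exon outside the coding sequence.
Fgf8: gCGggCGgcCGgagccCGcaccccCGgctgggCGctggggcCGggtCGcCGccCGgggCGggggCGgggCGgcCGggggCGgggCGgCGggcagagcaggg
Stk31: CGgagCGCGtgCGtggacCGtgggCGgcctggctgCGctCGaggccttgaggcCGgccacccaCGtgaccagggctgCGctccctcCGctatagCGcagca
Wnt5a: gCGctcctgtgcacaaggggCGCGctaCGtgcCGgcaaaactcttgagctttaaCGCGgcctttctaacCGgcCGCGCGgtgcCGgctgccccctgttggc
Cdx2: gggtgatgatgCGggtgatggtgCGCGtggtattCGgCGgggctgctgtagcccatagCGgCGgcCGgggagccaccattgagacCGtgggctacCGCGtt
Git1: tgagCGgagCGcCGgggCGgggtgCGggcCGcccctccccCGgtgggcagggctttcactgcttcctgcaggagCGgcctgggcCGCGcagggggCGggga
T: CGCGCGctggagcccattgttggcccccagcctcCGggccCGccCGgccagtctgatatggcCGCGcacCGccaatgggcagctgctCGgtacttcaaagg
Krt18: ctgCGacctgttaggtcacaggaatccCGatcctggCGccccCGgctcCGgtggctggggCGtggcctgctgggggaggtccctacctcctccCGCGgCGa
Il12b: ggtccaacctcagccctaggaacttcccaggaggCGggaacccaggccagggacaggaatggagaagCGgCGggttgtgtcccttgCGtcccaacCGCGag
Hormad1: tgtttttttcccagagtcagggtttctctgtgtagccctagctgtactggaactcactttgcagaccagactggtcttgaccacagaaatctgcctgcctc
Lefty1: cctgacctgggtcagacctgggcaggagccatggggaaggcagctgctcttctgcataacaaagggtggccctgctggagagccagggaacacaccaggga
The peak of Fgf8, a growth factor of the early embryo, lay at chr19:45817499-45817599 and had 17 CpG sites in 92.1% GC. That of Stk31, a testis kinase, lay at chr6:49345422-49345522 with 13 sites. The peak of Wnt5a, a secreted Wnt ligand, was intronic at chr14:29320806-29320906 with 12 sites. The peak of Cdx2, a homeobox factor of trophoblast and hindgut, fell entirely within coding sequence at chr5:148118194-148118294 and had 11 sites. Git1, an adaptor protein of focal adhesions, also had 11 sites, upstream of its start at chr11:77306730-77306830. The peak of T (Brachyury), the T-box factor of the primitive streak, lay upstream at chr17:8626960-8627060 with 10 sites. Krt18, a simple epithelial keratin, had 9 sites upstream at chr15:101858527-101858627. Il12b, a subunit of interleukin 12, had 6 sites upstream at chr11:44212541-44212641. The peaks of Hormad1, a meiotic chromosome axis protein, at chr3:95363041-95363141 and of Lefty1, an inhibitor of Nodal, at chr1:182863951-182864051 held 0 CpG sites.

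Most WT-only promoters held few WT peaks. 831 of the 1360 (61.1%, interval 58.5% to 63.7%) had 1 WT peak, 332 (24.4%) had 2, 128 (9.41%) had 3, 44 (3.24%) had 4 and 25 (1.84%) had 5 or more. Among promoters with peaks in both lists, 23.0% had 1 WT peak and 18.3% had 5 or more. The median was 1 WT peak in WT-only promoters and 3 in promoters of both lists. Read the other way, 23.7% of the 3506 promoters with 1 WT peak were WT-only, against 9.68% with 2, 5.34% with 3, 2.95% with 4 and 1.86% with 5. None of the 386 promoters with 8 or more WT peaks was WT-only, which allows a share of up to 0.777%. The class thus lay mainly among promoters with few WT peaks. The 1360 promoters held 2059 distinct WT peaks.

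The peak names carry a running number for each chromosome, and the sources do not say what it stands for. It was expressed as a percentage of the highest number on that chromosome in the list, and each promoter was given the lowest value among its WT peaks. The median of this name number was 60.6% (interquartile range 44.4% to 79.4%) in WT-only promoters and 16.3% (7.50% to 30.1%) in promoters of both lists. When all promoters with a WT peak were divided into deciles by this value, 0 of 1297 were WT-only in each of the 2 deciles with the lowest numbers, which allows up to 0.231%. The share was 1.85% in decile 6, 14.3% in decile 8, 28.0% in decile 9 and 53.1% (interval 50.4% to 55.9%) in decile 10. WT peaks with low numbers were therefore nearly always matched by a KO peak in the promoter. Promoters of both lists held more WT peaks, and the lowest of several values tends to be lower. The difference in name number was not separated from that in the number of peaks. 632 WT-only promoters (46.5%) had both 1 WT peak and a name number above 50%.

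**Figure D1:**
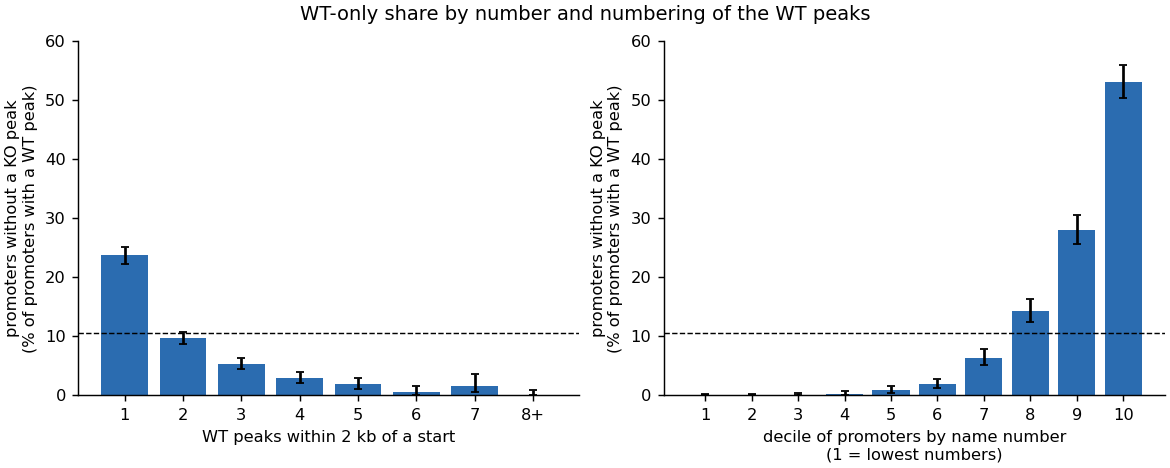
The left panel plots the percentage of promoters with a WT peak that had no KO peak (y axis) against their number of WT peaks (x axis), and the right panel against the decile by name number. Bars are shares over promoters, error bars are 95% exact binomial intervals, and the dashed line is the share over all promoters with a WT peak, 10.5%. The share fell from 23.7% at 1 peak to 0 at 8 or more, and rose from 0 in the lowest decile to 53.1% in the highest.

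The number of WT-only promoters also depended on the length of the lists. When the WT list was cut to as many peaks as the KO list, keeping the lowest name numbers, 1095 promoters (8.71%) were WT-only and 492 (4.11%) were KO-only, a ratio of 2.23 in place of 3.78. When only WT peaks from the lower 50% of name numbers were looked up in the whole KO list, 417 promoters (3.84%) were WT-only and 1515 (12.7%) were KO-only, a ratio of 0.275 in the opposite direction, with 35957 WT peaks set against 61640 KO peaks. With the lower 50% of both lists the ratio was 4.58, a setting chosen after seeing the data.

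WT-only promoters were somewhat less CpG-rich than promoters of both lists. Over the central 200 bp of the WT peak with the lowest name number, the median GC content was 65.0% (interquartile range 59.0% to 71%, SD 8.81, n = 1360) in WT-only promoters and 66.5% (61.5% to 72.0%, n = 11606) in promoters of both lists. The median ratio of observed to expected CpG was 0.742 against 0.815, and the median number of CpG sites was 15 against 17. Among promoters with 1 WT peak the medians were 63.5% and 64.5%. These distributions overlapped widely. The KO peaks of the KO-only promoters were poorer still, with a median GC of 54.8% (48.9% to 60%, n = 360).

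Promoters were also classed by the sequence around their reference start, the start used by most transcripts. A start was CpG-rich if a 500 bp window from 500 bp before to 2000 bp after it had at least 55% GC and an observed to expected CpG ratio of at least 0.6. It was CpG-poor if no window exceeded 0.4, and intermediate otherwise. 943 WT-only promoters (69.3%, interval 66.8% to 71.8%) were CpG-rich, 287 (21.1%) intermediate and 130 (9.56%) CpG-poor. The shares were 85.5%, 10.3% and 4.22% in promoters of both lists, 31.1%, 38.1% and 30.8% in KO-only promoters, and 7.82%, 34.7% and 57.5% in promoters without a peak. WT-only promoters thus stood between the promoters of both lists and the KO-only promoters. Of promoters with a WT peak, 8.68% of the CpG-rich, 19.4% of the intermediate and 21.0% of the CpG-poor lacked a KO peak. Within promoters with 1 WT peak the order was similar, with 20.3% (18.8% to 21.9%), 32.4% (28.8% to 36.2%) and 34.2% (28.9% to 39.9%), and the intermediate and CpG-poor starts did not differ beyond their intervals. The KO-only share of promoters with a KO peak rose more steeply over the same classes, from 1.12% to 10.3% and 18.5%. By the GC content of the WT peak, the WT-only share was 19.9% at 45% to 50% GC, 9.05% at 65% to 70% and 12.9% at 80% to 85%.

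**Figure D2:**
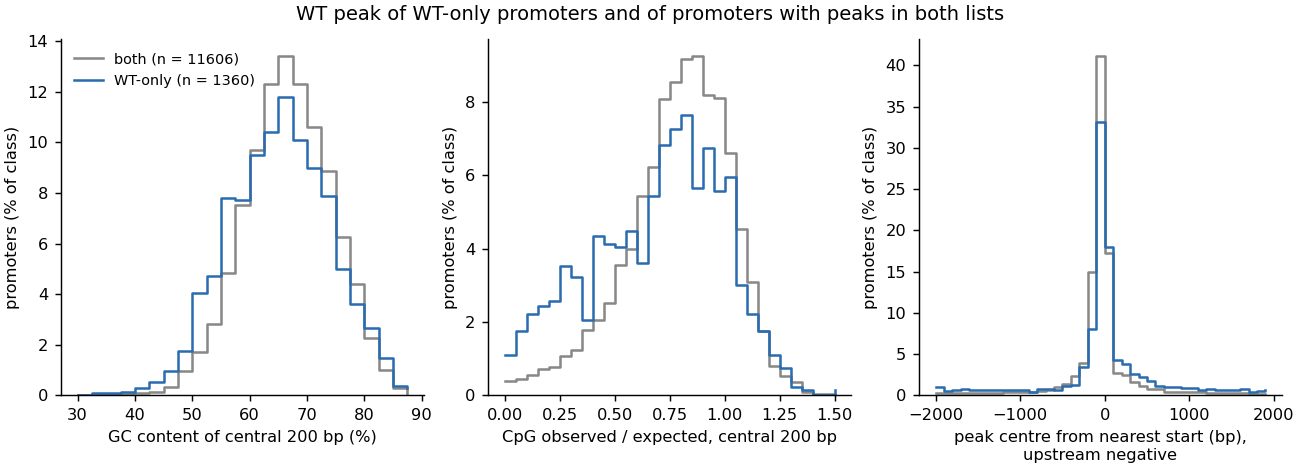
Histograms show the percentage of each promoter class (y axes) by GC content in %, by observed over expected CpG ratio and by distance in bp of the WT peak centre from the nearest transcript start. The blue line is the 1360 WT-only promoters and the grey line the 11606 promoters of both lists. The blue line lies above the grey at low CpG ratios and away from the start, and below it just upstream of the start.

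The WT peaks of WT-only promoters lay less tightly at the start. The peak centre was within 500 bp of a start in 77.9% (interval 75.6% to 80.0%) of WT-only promoters and 88.6% of promoters of both lists, and more than 1 kb away in 13.2% and 5.63%. The median distance was 93.5 bp against 78 bp. The centre was on the upstream side of the nearest start in 56.6% (53.9% to 59.3%) against 69.6% (68.7% to 70.4%). By annotation, 43.4% of the WT-only peaks were upstream of the gene, 28.2% in an exon outside the coding sequence, 16.6% in an intron and 10.8% in a coding exon. In promoters of both lists these shares were 55.9%, 25.5%, 13.6% and 4.36%. The genes were shorter, with a median length of 16062 bp against 25026 bp, and 38.5% against 28.7% had 1 annotated start. A KO peak near any start removed a gene from the class, so the rule itself favoured genes with few starts. How far these differences follow from the rule was not tested. The central 31 bp of the peak occurred at 2 or more places in the genome in 3.46% and 1.6%.

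Short motifs were searched as exact letters on either strand of the central 200 bp. CCAAT, the core of the box bound by NFY, was present in 16.2% of WT-only promoters, 33.2% of promoters of both lists and 26.6% of 200 bp windows at the reference starts of all promoters. This gap remained in peaks within 500 bp of a start in promoters with 1 WT peak, at 15.3% (interval 12.5% to 18.3%, n = 622) against 34.2% (32.3% to 36.1%, n = 2396). In peaks within 500 bp of a start in the 3 deciles with the highest name numbers it was narrower, at 15.5% (13.3% to 18%, n = 952) against 21.7% (20% to 23.5%, n = 2202). GGGCGG, the box bound by SP and KLF factors, was present in 51.0%, 67.3% and 39.9% of the same classes. Near a start in promoters with 1 WT peak, the shares of WT-only promoters and promoters of both lists were 53.9% (49.9% to 57.8%) and 64.1% (62.1% to 66.0%). In those 3 deciles near a start they were 55.8% (52.6% to 59.0%) and 58.3% (56.2% to 60.4%), which did not differ beyond their intervals. CCGGAAGT, the ETS site, was found in 3.46%, 6.71% and 4.11%, in promoters with 1 WT peak near a start in 5.47% (3.81% to 7.56%) against 11.1% (9.83% to 12.4%), and in those 3 deciles in 4.41% (3.20% to 5.92%) against 7.49% (6.43% to 8.67%). The other letters searched were each present in less than 10% of every class. CACGTG, the E-box of Myc and USF, was in 6.62%, 7.77% and 5.44%. TGACGTCA, the CREB site, was in 2.13%, 2.97% and 1.87%, the NRF1 palindrome in 1.62%, 1.41% and 0.964%, and AAGATGGCG, the YY1 site, in 1.91%, 1.86% and 1.97%. TATAAA was in 2.13%, 1.89% and 8.29%. The octamer ATGCAAAT of Oct factors was in 0.662%, 1.01% and 0.92%. The palindrome bound by Kaiso was in 0.441%, 0.870% and 0.497%, GTTGCCATG, the RFX site, in 0.588%, 0.620% and 0.452%, and TCAAGGTCA, the Esrrb site, in 0.221%, 0.172% and 0.128%. A match is a stretch of sequence and not a measure of binding.

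The nearest KO peak was usually well outside the promoter. By the rule it lay more than 2 kb from every start, and its median distance was 14076 bp (interquartile range 6478 to 28880 bp). It lay within 5 kb in 240 promoters (17.6%), from 5 to 10 kb in 267 (19.6%), from 10 to 50 kb in 695 (51.1%) and beyond 50 kb in 158 (11.6%). 853 promoters (62.7%, interval 60.1% to 65.3%) thus had no KO peak within 10 kb. The promoters with the most distant KO peak were those of Dock1, a Rac exchange factor (222462 bp), Gldn, a protein of the nodes of Ranvier (215187 bp), Plxna4, a semaphorin receptor (209516 bp), Mc4r, a melanocortin receptor (198453 bp), and Wnt5a (187096 bp). Between 2 and 10 kb from their starts, WT-only promoters had 1191 WT and 951 KO peaks, a ratio of KO to WT of 0.798. Around promoters of both lists the numbers were 5576 and 4805, with a ratio of 0.862, and over all peaks on these autosomes the ratio was 0.868. Per promoter, these were 0.876 WT and 0.699 KO peaks in WT-only promoters, and 0.480 and 0.414 in promoters of both lists. Promoters without a peak had 0.489 and 0.423, and KO-only promoters 0.867 and 0.761. WT-only promoters thus had more flanking KO peaks each than promoters of both lists or without a peak.

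At the limit of 2 kb the values were as follows. The 5 WT-only promoters with the closest KO peak were those of Col18a1 (2009 bp), Gp5 (2013 bp), 2810008M24Rik (2017 bp), Rin2 (2018 bp) and Fbln5 (2032 bp). The 5 with 1 KO peak that lay just inside the limit, and so were not WT-only, were Akap7 (1981 bp), Zfp459 (1978 bp), Gbx2 (1967 bp), Slco1c1 (1966 bp) and Cby3 (1966 bp). In 5 WT-only promoters, Gp5, Rin2 and Fbln5 among them, a WT peak had a KO peak within 100 bp whose centre fell outside the limit, and in 2 of them this held for every WT peak. The promoters were not all separate regions. 151 of them shared a WT peak with another, in 75 shared regions of which 62 held genes on both strands, and this left 1284 separate regions. The WT-only share per chromosome ran from 7.22% on chromosome 11 to 13.6% on chromosome 15.

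Gene lists of lineages, germline and chromatin were read against the share of 10.5% over all promoters with a WT peak. The highest share among the hand-written lists was that of mesoderm and heart genes, where 14 of 35 promoters with a WT peak were WT-only (40.0%, interval 23.9% to 57.9%). Of its members with 1 WT peak 9 of 13 were WT-only, against 831 of 3506 over all promoters. Of its members in the 3 deciles with the highest name numbers 13 of 23 (56.5%, interval 34.5% to 76.8%) were WT-only, against 31.8% (30.3% to 33.3%) over all promoters in these deciles. With only the lower 50% of WT name numbers 2 of 19 members (10.5%) were WT-only, and the interval (1.30% to 33.1%) included the 3.84% over all promoters. The median name number of the list's members with a WT peak was 45.8%, against 18.9% over all promoters with a WT peak. Of all mesoderm and heart members 21 had peaks in both lists, 1 was KO-only (Myh6, the cardiac myosin heavy chain) and 11 had no peak.

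The 14 genes covered several steps of mesoderm development. T and Mesp1, the bHLH factor of early cardiac mesoderm, had 1 WT peak each. That of T lay 278 bp upstream of its start with a name number of 89.9% and 71% GC, and the nearest KO peak was 28735 bp away. That of Mesp1 lay 973 bp downstream in an intron with a name number of 52.6%, and the nearest KO peak was 13068 bp away. Wnt3a, the Wnt ligand of the primitive streak, had 2 WT peaks centred 46 bp downstream and 17 bp upstream of its start. It also had a KO peak 3107 bp upstream, beside a WT peak at 3112 bp. Wnt5a had 1 WT peak, 1770 bp from its nearest start, with a name number of 27.4%. Fgf8 had 3 WT peaks, and its lowest name number was 57.8%. Hand1, a bHLH factor of heart and trophoblast, had 1 WT peak at 92.7%, 4 bp from an alternative start. Tbx1, of the pharyngeal arches and outflow tract, had 1 at 69.0% in 87.5% GC. Evx1, a homeobox factor of the posterior streak, Tcf21, of epicardium and kidney, and Pax8, of kidney and thyroid, also had 1 peak each. Tal1, the bHLH factor of blood formation, had 3, and Meox2, of somites, had 4. The regulators of skeletal muscle Myod1 and Myog had 3 and 1, both lowest-numbered peaks lying in coding exons. The reference start was CpG-rich in 13 of the 14 and intermediate in Myog.

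The other lineage lists gave lower shares. In endoderm, 4 of 19 promoters (21.1%, interval 6.05% to 45.6%) were WT-only. They included Cdx1 and Cdx2, caudal homeobox factors, and Hnf4a, a nuclear receptor of liver and gut. Cdx2 had 1 WT peak at 88.6% in its coding sequence, and 2205 bp from its start a KO peak lay beside a WT peak. In neuroectoderm, 5 of 39 (12.8%, 4.30% to 27.4%) were WT-only, with Dbx1, Neurog3, Olig3 and Hes5, transcription factors of neural progenitors, and Msi1, an RNA-binding protein of neural stem cells. Olig3 had 3 WT peaks and the others 1 or 2. The shares of both lists did not differ from 10.5% beyond their intervals.

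Most pluripotency genes kept a peak in both lists. 27 of 31 pluripotency promoters with a WT peak also had a KO peak, and 4 (12.9%, interval 3.63% to 29.8%) were WT-only. Lefty1 and Lefty2, secreted inhibitors of Nodal signalling, are neighbours on chromosome 1. Lefty1 had 4 WT peaks from 1152 bp upstream to 2936 bp downstream of its reference start, with name numbers from 51.9% to 60.3%. Its closest KO peak was 7683 bp downstream of the reference start and 5834 bp from the nearest start. Lefty2 had 1 WT peak in its promoter at 79.5%, and the central 31 bp of this peak occurred at 2 places in the genome. With such repeated peaks left out of both lists, 3 of 30 pluripotency promoters were WT-only. Farther upstream, from 3117 to 8079 bp before its reference start, 5 WT peaks and 3 KO peaks were listed. A peak at the same position in both lists was that at chr1:182818846-182818946, with a name number of 13.9% in WT and 23.1% in KO. Prdm14, a zinc finger protein that restrains DNA methylation in ESCs, had 3 WT peaks, the lowest at 35.8% and 31 bp upstream, and no KO peak within 10 kb. Dppa4, a chromatin protein of pluripotent cells, had 1 WT peak at 84.7% in 45.5% GC.

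Germline genes that DNA methylation is known to silence appeared on both sides. 8 of 24 with a WT peak (33.3%, interval 15.6% to 55.3%) were WT-only, and 5 of 21 with a KO peak (23.8%) were KO-only, against 3.01% over all promoters with a KO peak. At 1 kb and 5 kb the WT-only interval also lay above the share over all promoters. With equal list lengths 4 of 20 were WT-only, and the interval (5.73% to 43.7%) included 8.71%. With the lower 50% of WT name numbers 2 of 14 were, and the interval (1.78% to 42.8%) included 3.84%. In the 3 deciles with the highest name numbers 8 of 14 were, and the interval (28.9% to 82.3%) included 31.8%. The WT-only members were Sycp1, Syce1 and Hormad1, proteins of meiotic chromosomes, Mael and Tdrd6, of the piRNA machinery, Sohlh2, a bHLH factor of germ cells, Slc25a31, a testis ADP/ATP carrier, and Stk31. The lowest name numbers ran from 44.9% in Mael to 95.6% in Hormad1. The KO-only members were Piwil4, Smc1b, Spo11, Stra8 and Tuba3a.

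Genes of the chromatin machinery mostly had peaks in both lists. Of 47 COMPASS, Polycomb, heterochromatin and DNA methylation genes, all had a WT peak and 4 (8.51%, interval 2.37% to 20.4%) were WT-only. Rbbp5, a core subunit of the COMPASS H3K4 methyltransferases, had 2 overlapping WT peaks, at 85.6% and 95.8%, centred 274 and 324 bp upstream of its start, and its nearest KO peak was 59974 bp away. The gene annotated as Mll2 on chromosome 15, a catalytic subunit of such a complex, had 1 WT peak 1113 bp from a start at 44.9%. This symbol of the annotation may not stand for the same gene as the Mll2 of other studies. The H3K4 demethylases Kdm1a and Kdm5b had 1 and 3, at 42.3% and 59.0%.

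The cultures could hold feeder fibroblasts, so fibroblast markers were listed too. 3 of 12 with a WT peak (25%, interval 5.49% to 57.2%) were WT-only, namely Dcn, a proteoglycan, Pdgfrb, a growth factor receptor, and Loxl1, a collagen crosslinking enzyme. 9 had peaks in both lists, and 7, among them Col3a1, Postn and Twist2, had no peak in either. The part of feeder cells in the WT-only promoters was not tested.

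**Figure D3:**
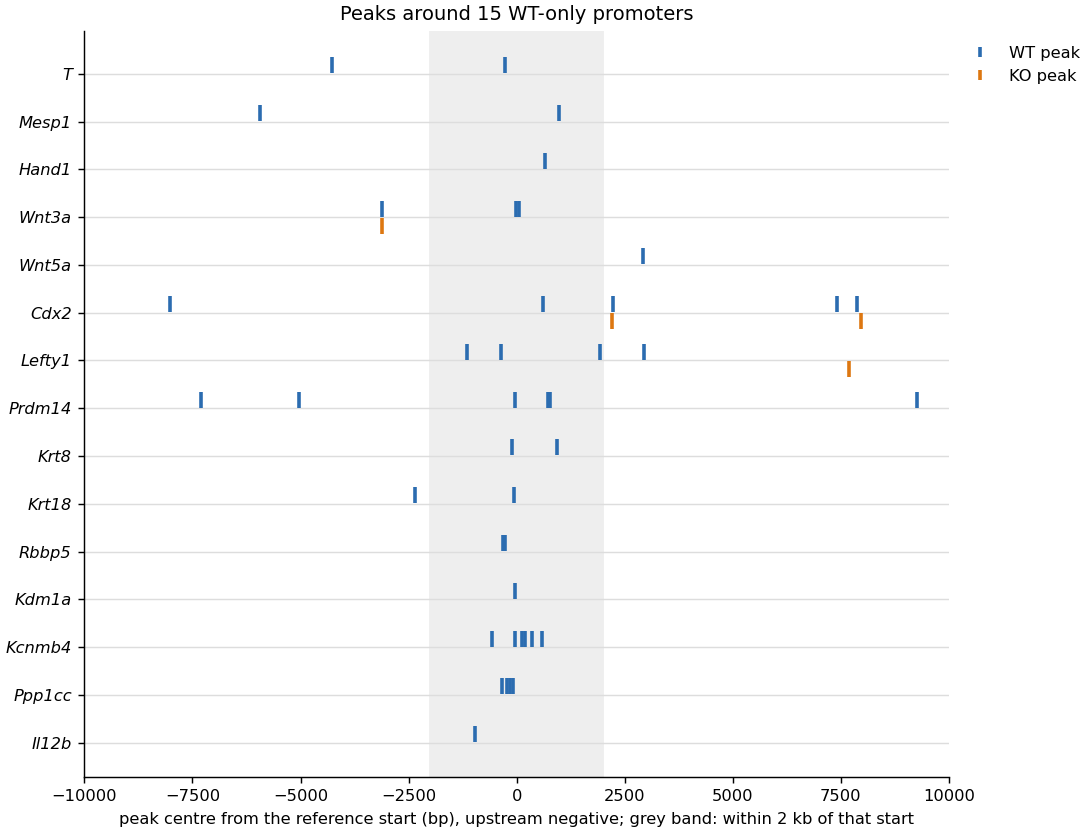
Peak centres of the WT list (blue) and the KO list (orange) are drawn within 10 kb of the reference start of 15 WT-only promoters, with the distance in bp on the x axis and upstream to the left. The grey band spans 2 kb on either side of that start, so peaks near an alternative start can lie outside it, as for Wnt5a. KO peaks appear only in the rows of Wnt3a, Cdx2 and Lefty1, all outside the band.

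Broader gene families were read in the same way. The share of WT-only promoters was 27.8% (15 of 54, interval 16.5% to 41.6%) in cytokines, chemokines and their receptors, with Il6, Il12b and Cxcl1 to Cxcl3 among them. It was 23.0% (17 of 74, 14.0% to 34.2%) in neurotransmitter receptors, such as Grin1, a subunit of the NMDA receptor, and Chrna4, a nicotinic receptor subunit. In homeobox genes of the Hox, Lhx, Nkx, Dlx, Irx, Pax, Pitx, Msx and sine oculis families it was 22.2% (16 of 72, 13.3% to 33.6%), 10 of them Hox genes. In solute carriers it was 18.1% (41 of 227, 13.3% to 23.7%). The lower bounds of these 4 families lay above 10.5%. The list of neurotransmitter receptors, made from symbol patterns, also caught the WT-only genes Adrbk1, Adrbk2 and Grid2ip, which are not receptors. With equal list lengths, where 8.71% of all promoters with a WT peak were WT-only, the intervals of neurotransmitter receptors and of the homeobox families (both 16.4%, interval 8.49% to 27.5%) included that share, as did that of the homeobox families at 1 kb (16.9%, 8.76% to 28.3%, against 10.8%). With the lower 50% of WT name numbers, the intervals of all 4 families included the share of 3.84%. Olfactory and vomeronasal receptors rarely had a WT peak, in 28 of 1431, and 10 of the 28 (35.7%, 18.6% to 55.9%) were WT-only, while 12 of 30 with a KO peak (40.0%) were KO-only. With equal list lengths 4 of 21 of these receptors (19.0%) were WT-only, and the interval (5.45% to 41.9%) included 8.71%. With the lower 50% of WT name numbers 0 of 12 were (interval 0% to 26.5%).

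In other families the interval included 10.5%. Collagens, laminins and integrins had 20% (11 of 55, interval 10.4% to 33.0%), potassium channels 19% (10 of 52), orphan and adhesion G protein-coupled receptors 19% (9 of 47) and Wnt, Bmp and Fgf ligands 18.9% (7 of 37). The potassium channel list, made from symbol patterns, left out the WT-only gene Kcnmb4, a subunit of such a channel. Cadherins and protocadherins had 15.0% (3 of 20), transmembrane proteins named Tmem 12.9% (21 of 163) and mitochondrial ribosomal proteins 11.4% (8 of 70). DNA repair genes stood at 10.4% (7 of 67), with Brca2, Xrcc2 and Rad52, which act in homologous recombination.

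The lowest shares were counted in the following lists. In proteasome subunits 1 of 34 promoters (2.94%) was WT-only, that of Psmb6. The share was 4.55% (2 of 44) in kinesins and dyneins, 5.33% (4 of 75) in cytosolic ribosomal proteins and 5.66% (3 of 53) in Rab GTPases, and the intervals of these 4 lists all included 10.5%. The ribosomal list, made from gene symbols, also caught Rps6kb2, which is a kinase. Ubiquitin ligases had 6.34% (13 of 205, interval 3.42% to 10.6%) and C2H2 zinc finger genes 6.21% (20 of 322, 3.83% to 9.43%), and only for the latter did the upper bound lie below 10.5%. With equal list lengths the C2H2 share was also lower (4.81%, 2.72% to 7.81%, against 8.71%). With the lower 50% of WT name numbers its interval included the share over all promoters (2.52%, 1.02% to 5.12%, against 3.84%). The same held with the lower 50% of both lists (16.9%, 12.7% to 21.8%, against 17.5%). Calcium and sodium channels had 8% (2 of 25), P450 enzymes 9.09% (2 of 22) and Fox, Sox, Tbx and Gata factors 9.38% (6 of 64). The families also differed in the name numbers of their WT peaks. The median over members with a WT peak was 39.8% in cytokines and in the homeobox families, and 16.9% in proteasome subunits and 19.9% in C2H2 zinc finger genes. Within the 3 deciles with the highest name numbers, where 31.8% of all promoters were WT-only, solute carriers had 43.9% (interval 33.0% to 55.3%), cytokines 42.4% (25.5% to 60.8%), neurotransmitter receptors 42.9% (26.3% to 60.6%), the homeobox families 33.3% (19.6% to 49.5%), ubiquitin ligases 21.4% (11.6% to 34.4%) and C2H2 zinc finger genes 20.4% (12.9% to 29.7%). Of these 6 families, the interval excluded 31.8% in solute carriers and C2H2 zinc finger genes.

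**Figure D4:**
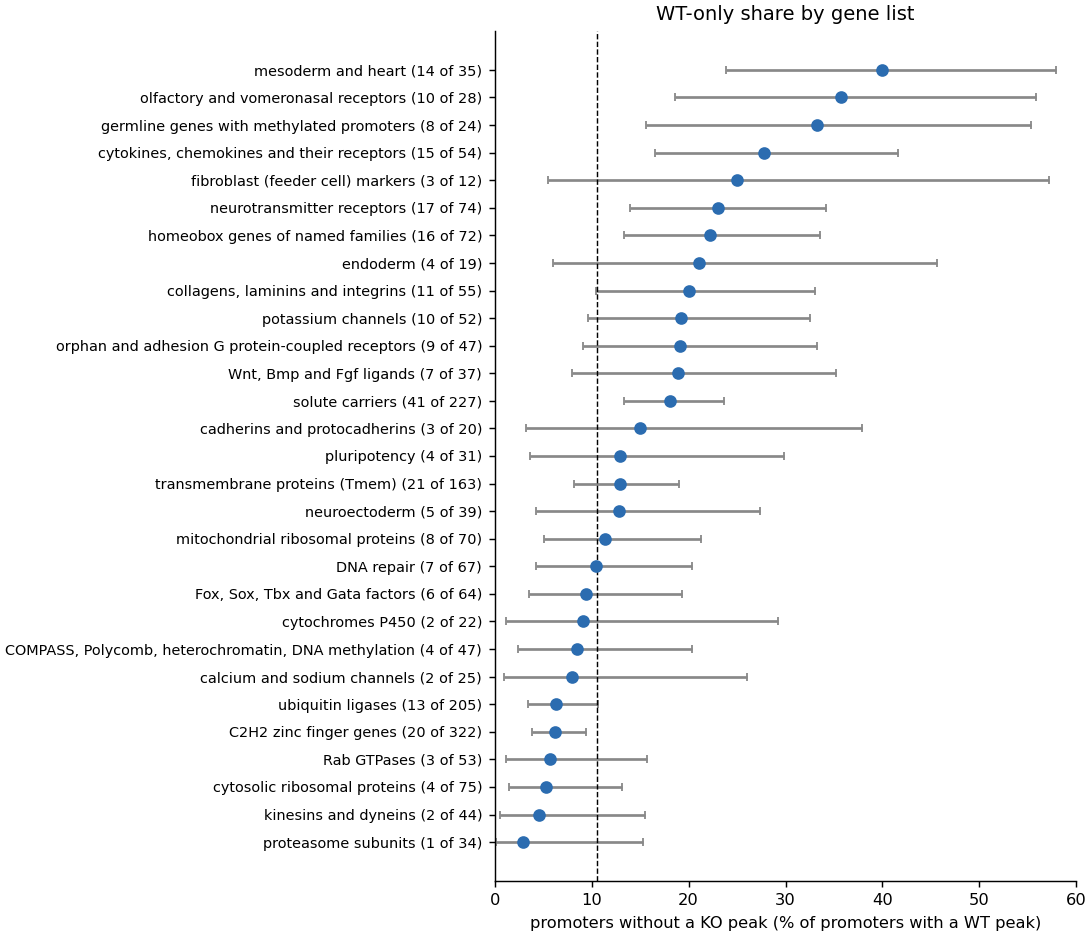
Points give the percentage of promoters with a WT peak that were WT-only (x axis) for each gene list with at least 10 such promoters, and lines give 95% exact binomial intervals. The numbers beside each name are WT-only promoters and promoters with a WT peak, and the dashed line is the share over all promoters, 10.5%. Mesoderm and heart genes lie at 40.0% and proteasome subunits at 2.94%.

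Of 51 keratin genes, 4 had a WT peak and 3 of these were WT-only (75%, interval 19.4% to 99.4%, against 10.5% over all promoters), and this family was singled out after its values were seen. In the other direction, 2 of 3 keratin genes with a KO peak, Krt23 and Krt42, were KO-only, against 3.01% over all promoters. Krt8 and Krt18, which pair in the filaments of simple epithelia, are neighbours on chromosome 15. Krt8 had 2 WT peaks, 101 bp upstream and 932 bp downstream of its start, with name numbers of 41.6% and 48.8%. The central 31 bp of its upstream peak occurred at 2 places in the genome. With such repeated peaks left out of both lists, 3 of 4 keratin genes with a WT peak were WT-only. Krt18 had 1 WT peak in its promoter, 70 bp upstream, at 34.1%. The nearest KO peaks lay 19908 bp from the start of Krt8 and 23951 bp from that of Krt18. Krt19, another simple epithelial keratin, had 3 WT peaks.

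A small number of WT-only promoters held many WT peaks. Sdf4, a calcium-binding protein of the Golgi, and B3galt6, a galactosyltransferase, share a bidirectional promoter with 7 WT peaks, and the nearest KO peak was 23220 bp from a start of Sdf4. Slc25a21, a mitochondrial carrier, 1110006G14Rik and Rbfox3, the neuronal splicing factor NeuN, also had 7. All those of Rbfox3 had high name numbers, the lowest being 80.4%. Gpr153, Kcnmb4, a subunit of the BK potassium channel, and Zbed3 had 6, and Git1, Dcun1d1 and Ncald had 5. The 6 peaks of Kcnmb4 spread from 572 bp upstream to 591 bp downstream of its start, with name numbers from 36.7% to 87.5%, and its nearest KO peak was 88431 bp away. Dcun1d1, a factor of cullin neddylation, had its lowest-numbered WT peak in 78.5% GC at an alternative start, while its reference start was CpG-poor. Not all of these promoters were far from KO peaks: Git1 had one 2271 bp and 1110006G14Rik one 2621 bp from a start.

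Other promoters combined low name numbers with the absence of a KO peak. Il12b had the lowest, 7.81%, for its 1 WT peak 974 bp upstream of a CpG-poor start, and the nearest KO peak was 12846 bp away. Ppp1cc, a catalytic subunit of protein phosphatase 1, followed with 10.9% and had 4 WT peaks within 350 bp upstream of its reference start, and its nearest KO peak was 36986 bp away. Then came Oprk1, the kappa opioid receptor (11.4%), Ifih1, the RNA sensor MDA5 (13.6%), Iqce (13.7%), Mettl10 (14.4%), 2410004B18Rik (16.6%), Dapk2, a death-associated kinase (16.7%), and Ap3b1 with Gm9776 (16.7%), which share a bidirectional promoter. Tcfap2c, the AP-2 gamma factor of trophoblast and germ cells, had 4 WT peaks, the lowest at 17.1%. The nearest KO peak lay close to the limit in Iqce (2117 bp), Oprk1 (2299 bp) and Ifih1 (2699 bp), but 73397 bp away in Ap3b1 and 32867 bp away in Tcfap2c.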

How the data were processed

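ATAC-seq was analysed in 1 WT and 1 Uhrf1 KO ESC library. According to the submitters' processing notes and the study's methods, the authors aligned reads with Bowtie2 2.1.0 to mm9 (local mode, 1 alignment per read), and used fragments shorter than 150 bp. HOMER 4.9.1 is listed without its role. Peak caller and threshold are not given in the sources used here, and a change of either would move peaks in or out of the lists. The deposited peak lists give positions, names and a score of 1 for every peak, so that neither counts nor depth could be recovered. With 1 library per genotype no test between genotypes was possible.

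Transcript starts were taken from GENCODE vM1 and sequence from NCBIM37, both on the build of the peaks. A peak lay in a promoter when its centre was within 2 kb of any start. Shares were given 95% Clopper-Pearson intervals with scipy 1.17.1, and a share of 0 the limit that 3 counts allow. Sequence was read with pysam 0.24.0 and samtools 1.23.1, copies of the central 31 bp were counted with numba 0.67.0, and tables were joined with Python 3.11.15, pandas 2.3.3 and numpy 2.4.6. Figures were drawn with matplotlib 3.10.9. The assignment was tested on 4000 simulated promoters with 0 wrong calls. Lists were matched by gene symbol, and 253 of 279 symbols given in the hand-written lists were found. The families were built from symbol patterns.

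Genes were named by fixed rules: the 10 WT-only promoters with the most WT peaks (ties by the lowest name number), the 10 with the lowest name number (in both, genes sharing a peak counted as 1), the WT-only members of the hand-written lists, the 5 nearest the limit on each side and the 5 with the most distant KO peak. Other genes are examples from family lists. The promoters, lists and rules were chosen with earlier results of these data known. The splits of motifs and gene lists by the 3 highest deciles of name number, the motif split by peaks near a start, and the counts of flanking peaks were added after seeing the data. The values of 1 gene of the hand-written lists are not reported here.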

Additional observations from a re-analysis of the deposited data

How the results depend on the processing

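No paired analysis was possible because a comparison of 1 library with 1 library holds no pairs. The number of WT-only promoters stayed between 1095 and 1484 in most settings (1 kb or 5 kb in place of 2 kb, any base of the peak, 1 reference start per gene, equal list lengths, no repeated sequences, chromosome X and 8 included). It was 417 with the lower 50% of WT name numbers against the whole KO list, and 1907 with the lower 50% of both lists, a setting chosen after seeing the data. As a share of promoters with a WT peak it was 11.4% with 1 reference start, 8.71% with equal lists, 3.84% with the lower 50% of WT numbers and 17.5% with the lower 50% of both. The share with 1 WT peak was 67.4% with equal lists and 83.2% with the lower 50% of WT numbers. The share with a CpG-rich start was 73.2% at 1 kb, 58.9% at 5 kb, 73.3% with 1 reference start, 72.2% with equal lists and 78.2% with the lower 50% of WT numbers. The share without a KO peak within 10 kb was 56.7% at 1 kb. The cause of these shifts was not tested. The mesoderm and heart share was 31% (9 of 29, interval 15.3% to 50.8%) with equal lists and 47.4% (9 of 19, 24.4% to 71.1%) with the lower 50% of both. With the lower 50% of WT numbers it was 10.5% (2 of 19), and the interval (1.30% to 33.1%) included the 3.84% over all promoters. The ratio of WT-only to KO-only promoters was below 1 only with the lower 50% of WT numbers (0.275). Over all gene lists, 271 values moved by less than their interval and 29 by more. With 1 library each and no peak heights, a promoter without a listed KO peak cannot be told from one whose KO signal fell just under the threshold.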
